A study of Mus musculus with 2 samples.

Results

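The imprinted Dlk1-Dio3 region of mouse chromosome 12 carries one of the densest runs of microRNA genes in the genome, and its levels in newborn kidney are described here gene by gene. Members were all counted genes that GENCODE release M21 annotates as microRNA on the plus strand of chromosome 12 between 109.54 and 109.76 Mb (assembly mm10). Of the 1973 named genes in the tables, 53 are members. The window has 59 such genes, and the other 6 (Mir136, Mir299a, Mir380, Mir376b, Mir376a and Mir409) were not counted as genes of their own. The libraries were microRNA sequencing of whole kidney tissue from 2 newborn pups (postnatal day 0) of the B6NCrl strain and the same pregnancy, with both kidneys of a pup in each library. There was no treatment or genotype contrast, sex was not collected, and both pups form 1 group (n = 2). RNA was limited in size by a bound of 30 that the labels give without a unit. The spread between pups may be partly technical.

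Levels are given as CPM, counts on the strand of the gene per 1000000 counts of all named genes. That total was 5832192 in pup 1 and 3846704 in pup 2. Reads listed as matching several places, 30.3% and 31.0% of all reads, and reads listed as unmapped are outside these counts. Where a gene had 0 counts, its level could be as high as 3 counts, or 0.514 CPM in pup 1 and 0.780 CPM in pup 2, with counting error alone considered. A small RNA read spans a mature microRNA, so levels were not divided by gene length, and the yield of reads from one microRNA to the next was not measured. Both mature arms of a hairpin fall into the same count. In whole tissue, fewer expressing cells and less RNA per cell cannot be told apart.

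The region is imprinted, which means that a gene is read from the chromosome of only one parent. The protein-coding genes Dlk1, Rtl1 and Dio3 are expressed from the paternal copy, and the non-coding RNAs Meg3, Rian and Mirg, with the microRNAs on the same strand, from the maternal copy. The microRNAs are thought to be cut from long maternal transcripts, and those opposite Rtl1 are perfectly complementary to its RNA. The cluster is known from brain, placenta and embryonic tissues. The members lie between Dlk1 (109452823 to 109463336, plus strand) and Dio3 (110279068 to 110281097, plus strand).

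Mature sequences from RefSeq (build GRCm38.p6) were found for 51 of the 53 members, 94 arms in all, and not for Gm23912 and Gm27379. For Mir487b, Mir539 and Mir376c only the 5p arm was found, and for Mir485 only the 3p arm. Arms of the 4 highest members, of Mir541 and of Mir1193 are shown because they carry most of the counts or share a seed with a member that does. Capitals mark the seed, bases 2 to 8 from the 5′ end, which pairs with target RNAs.
miR-411-5p: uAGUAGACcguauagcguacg
miR-411-3p: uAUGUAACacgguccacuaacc
miR-379-5p: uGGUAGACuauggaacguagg
miR-379-3p: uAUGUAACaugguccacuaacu
miR-1193-5p: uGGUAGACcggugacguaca
miR-127-5p: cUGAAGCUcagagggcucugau
miR-127-3p: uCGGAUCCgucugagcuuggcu
miR-487b-5p: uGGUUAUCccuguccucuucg
miR-541-5p: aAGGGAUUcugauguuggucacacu
miR-541-3p: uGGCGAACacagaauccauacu

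Mir379 and Mir411, which are neighbours, share the seed AUGUAAC in their 3p arms, and those arms differ at 2 of 22 bases (U10C and U22C, miR-379 base first, counted from the 5′ end). Their 5p arms differ at 7 of 21 bases, and the change G2A lies in the seed, so the 5p seeds are not the same. Instead miR-379-5p shares the seed GGUAGAC with miR-1193-5p, encoded further along the cluster. Counts per hairpin do not say which arm was read.

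Among the 86 distinct seeds of the arms found, 8 were shared by 2 members, which involved 12 members. Arms that were not found could add further shared seeds. Beside the groups above, these pairs were Mir494 with Mir410 and Mir496a with Mir453 (seeds GGUUGUC and GGUUGCC), Mir1197 with Mir758 (GGUUGAC), and Mir370 with Mir1193 (AGGUCAC). Mir3070a and Mir3070b share the seeds of both arms. Members that share a seed could differ widely in level. Mir494 had 47.0 ± 2.25 CPM against 8.23 ± 0.489 for Mir410, and Mir496a had 42.8 ± 5.69 CPM while Mir453 had 0 counts in both pups.

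The 3p arms of Mir300 and Mir381 are also close relatives. They differ at 3 of 22 bases (G4A, U21G and C22U, miR-300 base first), and G4A lies in the seed.
miR-300-3p: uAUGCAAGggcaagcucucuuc
miR-381-3p: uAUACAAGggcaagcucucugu
Mir381 stood at 306 ± 11.9 CPM and Mir300 at 66.0 ± 7.45 CPM, and the values of the pups did not overlap.

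Short stretches recur in the mature arms and can cover or overlap the seeds. These stretches were chosen after the sequences were read and were searched on the RNA strand alone. The stretch AUACACGG (capitals below) was found in 3 of 94 member arms and in 0 of 1581 other mature sequences of the RefSeq table. It starts inside the seed in each arm, at base 5 in miR-154-3p and miR-485-3p and at base 7 in miR-494-3p.
miR-154-3p: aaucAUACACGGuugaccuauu
miR-485-3p: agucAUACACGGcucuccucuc
miR-494-3p: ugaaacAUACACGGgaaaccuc
The stretch GGUNNACC was found in 7 member arms (7.45%) and in 7 other mature sequences (0.443%), and 6 of these 7 come from microRNAs of the same window that are not members. The 6 are arms of miR-299a, miR-299b, miR-380 and miR-409. Mir299b lies opposite Mir299a, and the stretch is its own reverse complement. Among member arms it spans bases 2 to 9, and so the whole seed, in miR-1197-5p, miR-758-5p, miR-1193-5p and miR-412-5p. These are matches of letters and say nothing of what binds there.

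Levels along the cluster differed strongly from member to member. Summed over members, the cluster held 42354 counts in pup 1 and 33641 in pup 2. That is 7262 and 8745 CPM, or 0.726% of counts (95% Wilson interval 0.719 to 0.733) and 0.875% (0.865 to 0.884). These intervals cover counting error within a library only, and those of the pups do not overlap. Mean levels ran from 1912 CPM in Mir411 to 0 counts in 7 members. At 1000 CPM or more stood 2 members by their mean, 12 lay from 100 to 1000, 18 from 10 to 100, and 10 were below 10 CPM with more than 3 counts in both pups together. A further 4 members had 1 to 3 counts in all.

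**Figure D1:**
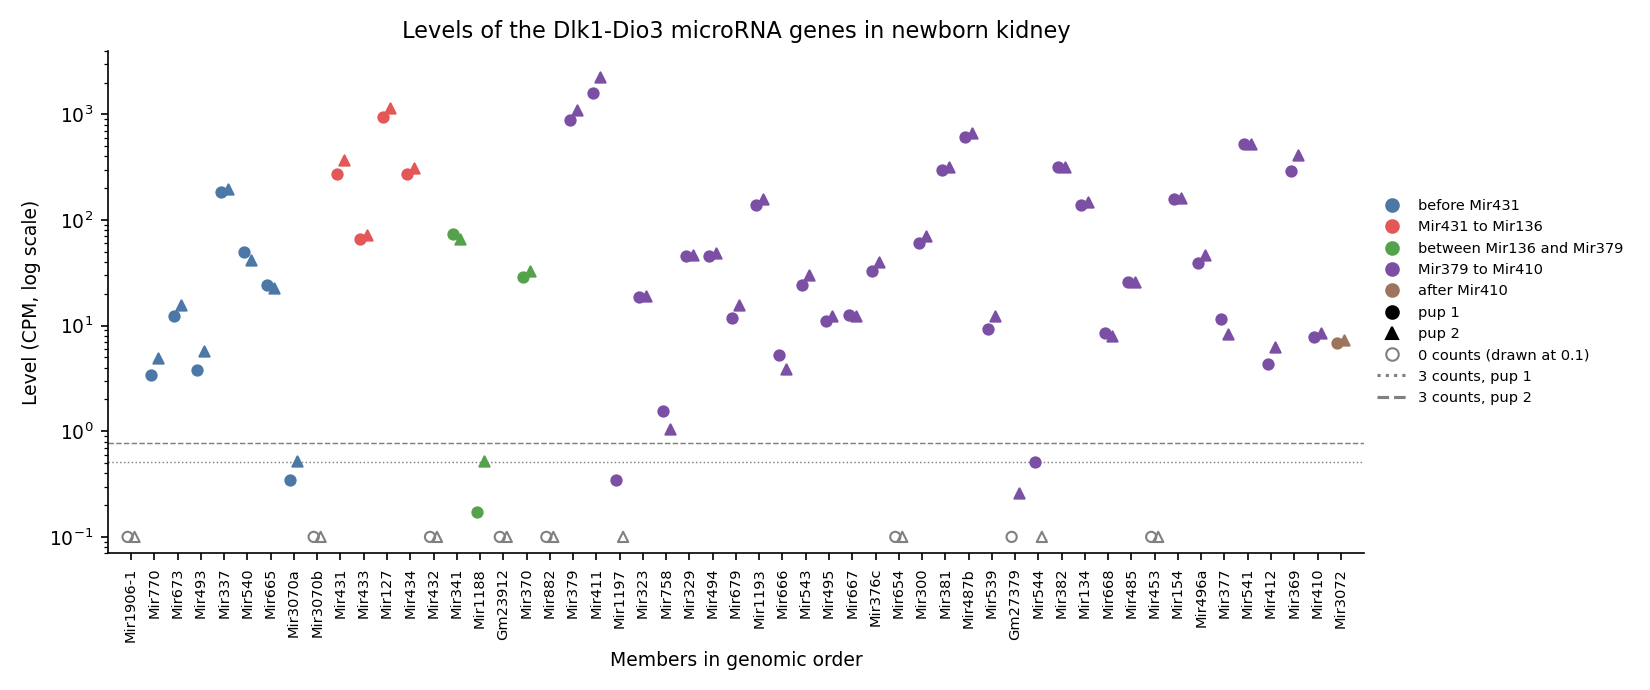
Level of each of the 53 members in CPM on a log axis, in genomic order, coloured by section, with a circle for pup 1 and a triangle for pup 2. Open symbols at the bottom stand for 0 counts, and the dotted and dashed lines for 3 counts in pup 1 and pup 2. The highest members are Mir411, Mir127 and Mir379, and the 7 members with 0 counts in both pups lie in each section except the one after Mir410.

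The cluster was divided by position into 5 sections. The first, before Mir431, holds 9 members around and after Meg3, the long non-coding RNA on the Dlk1 side. It took 3.85% of the cluster's counts in pup 1 and 3.32% in pup 2. Of its members 4 reached 10 CPM in both pups, led by Mir337 with 186 CPM in pup 1 and 199 in pup 2. Mir337 lies at 109585789 to 109585885, with no host gene annotated on its strand. It stood 42.0 ± 10.3 times above its neighbour Mir493, which had 3.77 and 5.72 CPM.

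Mir540 (45.7 ± 5.14 CPM), Mir665 (23.4 ± 1.10) and Mir673 (12.3 CPM in pup 1 and 15.6 in pup 2) were the other members of that section above 10 CPM. Both members inside exons of some Meg3 transcript were low. Mir770 had 3.43 CPM in pup 1 and 4.94 in pup 2, and Mir1906-1, the first member of the cluster, had 0 counts in both. Mir1906-1 shares a stretch of 22 bases with the hairpin of Mir1906-2, and Mir3070a (2 counts in each pup) and Mir3070b (0 counts) share such a stretch with each other. Reads that match several places are not counted for a gene, so 0 counts set no upper limit for these genes.

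The second section, Mir431 to Mir136, lies opposite exons of Rtl1, which is on the minus strand at 109589193 to 109600330. Its 5 counted members took 21.6% of the cluster's counts in pup 1 and 21.8% in pup 2. Mir127, known for guiding cleavage of Rtl1 RNA, led with 949.9 CPM in pup 1 and 1156 in pup 2 (109592846 to 109592915). Mir431 had 275 CPM in pup 1 and 366 in pup 2, and Mir434 had 275 and 314. The values of these 2 members overlapped, while Mir127 exceeded Mir434 3.57 ± 0.157 times and Mir431 3.30 ± 0.208 times.

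Mir433, between Mir431 and Mir127, was much lower, with 66.4 CPM in pup 1 and 72.8 in pup 2. Mir127 stood 15.1 ± 1.10 times above it, at a distance of 1007 bases between the hairpins. Mir432, 356 bases after Mir434, had 0 counts in both pups, and its hairpin shares no stretch of 22 bases with another. Against the floor of 3 counts in each library, Mir434 was at least 534-fold higher than Mir432 in pup 1 and at least 402-fold higher in pup 2. Mir136, the last gene of this section and another of those complementary to Rtl1, was not counted. The row matched to the minus-strand gene Mir3071, which overlaps Mir136, had 65.8 CPM in pup 1 and 72.8 in pup 2. Whether these reads come from Mir136 was not tested.

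In the third section, between Mir136 and Mir379, 5 members follow, of which 4 lie in introns of the host transcript Rian. Together they took 1.42% and 1.14% of the cluster's counts. Mir341 (70.1 ± 5.81 CPM) and Mir370 (30.9 ± 2.67 CPM) supplied nearly all of them. Mir1188, 226 bases after Mir341, had 1 count in pup 1 and 2 in pup 2. Gm23912, 57 bases before Mir370, and Mir882, which stands alone 63860 bases after Mir370, had 0 counts in both pups.

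The fourth section, Mir379 to Mir410, is the large run of related hairpins named after its first and last gene. It holds 33 members and took 73.1% of the cluster's counts in pup 1 and 73.6% in pup 2. In both pups 21 of the 33 reached 10 CPM. In release M21 the transcript Mirg starts inside this run, at 109729764, so that 21 of these members lie before it and 12 inside it. Those before it took 53.4% ± 1.81 of the cluster's counts and those inside it 19.95% ± 1.40.

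Mir411, at 109710175 to 109710256, was the highest of all members, with 1588 CPM in pup 1 and 2236 in pup 2. Its neighbour Mir379 (109709060 to 109709125) had 876 CPM in pup 1 and 1096 in pup 2. Mir411 was above Mir379 by 1.81 times in pup 1 and 2.04 times in pup 2. Mir299a and Mir380 follow but were not counted as genes, and reads at their places are given further on. The next 3 counted members were Mir1197 with 2 counts in pup 1 and 0 in pup 2, Mir323 at 18.8 ± 0.204 CPM and Mir758 at 1.29 ± 0.356 CPM.

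From Mir329 to Mir376c mean levels ran from 4.61 CPM in Mir666 to 149 CPM in Mir1193. Mir329 and Mir494 lay close together at 46.0 ± 0.775 and 47.0 ± 2.25 CPM. Mir1193 was the high member of this stretch, with 139.6 CPM in pup 1 and 159 in pup 2. Only 20 bases separate its hairpin from that of Mir679, which it exceeded 11.8 times in pup 1 and 10.2 times in pup 2. It stood 33.5 ± 10.2 times above Mir666 on its other side. Mir543, Mir495, Mir667 and Mir376c ranged from 11.6 CPM in Mir495 to 36.3 CPM in Mir376c. Mir376c belongs to a family known for RNA editing in its seed, and it shares 22 bases with Mir376b, so its level is uncertain. Mir654, 414 bases after it, had 0 counts in both pups.

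A second group of high members followed. Mir381 had 297 CPM in pup 1 and 314 in pup 2, and Mir487b (109727333 to 109727414) had 605 and 664. Next to them Mir539 had 9.26 and 12.2 CPM, so that Mir487b was 59.8 ± 7.72 times higher at a distance of 714 bases. Gm27379 had 0 counts in pup 1 and 1 in pup 2, and Mir544 had 3 and 0.

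Inside Mirg, members in exons of some transcript and members in introns both reached high levels. Mir382 (exon) had 315 CPM in pup 1 and 317 in pup 2, and Mir134 (exon), known for a part in the growth of dendritic spines, had 138 and 149. Mir154 (intron), which gives its name to a family of related microRNAs in this cluster, had 157 and 159.9 CPM. Mir541 (intron, 109742409 to 109742498) had 520.4 and 519.4 CPM, a difference within counting error. Mir668 (exon), 104 bases before Mir485, had 8.57 and 8.06 CPM, Mir496a (intron) had 38.8 and 46.8, and Mir377 (exon) had 11.7 and 8.32. Mir453, also in an intron, had 0 counts, while Mir485, 644 bases before it, had 25.9 ± 0.196 CPM.

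The end of the run held steep steps. Mir412 had 4.29 CPM in pup 1 and 6.24 in pup 2, and Mir541, the counted member before it, stood 102 ± 27.0 times higher. Mir409, not counted as a gene, lies between them, with 360 and 414 CPM of reads at its place. Mir369 (exon), separated from Mir412 by 49 bases, had 293 CPM in pup 1 and 409 in pup 2, or 67.0 ± 2.08 times Mir412. Mir410, which gives the run the other part of its name, had 7.89 and 8.58 CPM and lay 42.4 ± 7.38 times below Mir369 at 218 bases. Mir3072, the last member and the only counted one after Mir410, had 6.86 and 7.28 CPM.

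**Figure D2:**
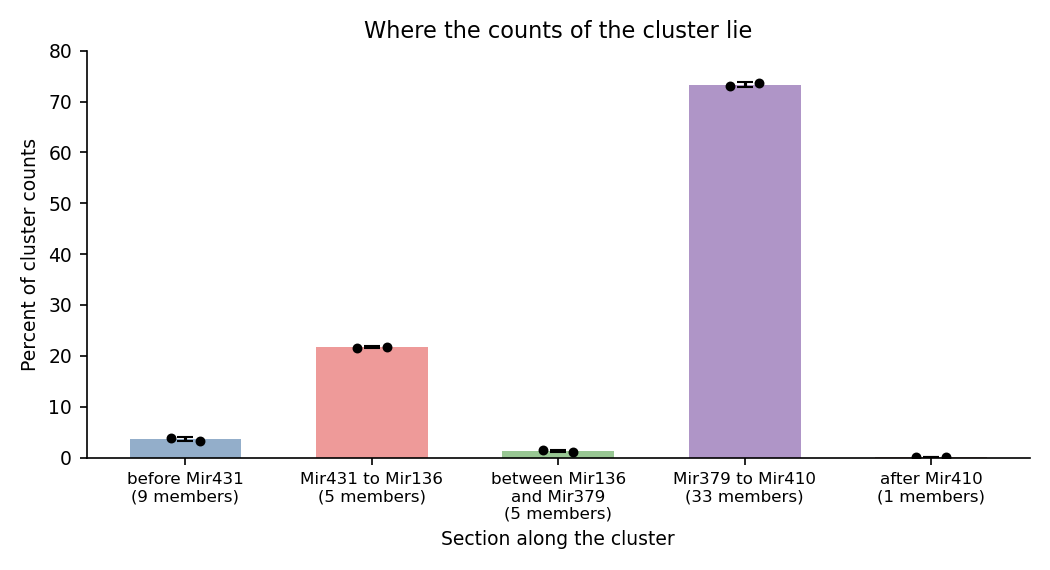
Percent of the cluster's counts in each of the 5 sections, as mean with SD over 2 pups (bars) and each pup (points). The section Mir379 to Mir410 holds 73.4% ± 0.405 and the section Mir431 to Mir136, with 5 members, 21.7% ± 0.180.

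The 4 highest members held 57.1% ± 2.53 of the cluster's counts and the 15 highest 92.5% ± 0.549. Ordered by mean level, the members at 100 CPM or more were Mir411 (1912 ± 458 CPM), Mir127 (1053 ± 145), Mir379 (986 ± 155), Mir487b (635 ± 42.3) and Mir541 (519.9 ± 0.694). Then came Mir369 (351 ± 81.5), Mir431 (321 ± 64.2), Mir382 (316 ± 1.54), Mir381 (306 ± 11.9) and Mir434 (294 ± 27.8), followed by Mir337 (192 ± 9.01), Mir154 (159 ± 1.75), Mir1193 (149 ± 13.6) and Mir134 (144 ± 7.91). Steps larger than the SD of either neighbour lay below Mir411, Mir379, Mir487b, Mir541, Mir434, Mir337 and Mir134, which was followed by Mir341 at 70.1 CPM. Differences within the SD lay between Mir127 and Mir379, between each member and the next from Mir369 to Mir434, and between each member and the next from Mir154 to Mir134.

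Consecutive members were often far apart in level. Of the 52 pairs of consecutive counted members, 48 have no uncounted plus-strand gene between them, and 24 of these 48 have less than 1 kb between their hairpins. Among the 31 of them with more than 3 counts in the lower member of each library, 11 differed at least 10-fold in each pup. The median absolute log2 ratio between the levels of all consecutive members was 4.01 ± 0.14, against 4.18 ± 0.01 over all 1378 pairs of members. Over the 40 members with a mean count of at least 10, taken in order, it was 2.08 ± 0.21, against 2.50 ± 0.01 over their 780 pairs. Among those 40 it was 2.13 ± 0.15 for the 15 consecutive pairs under 1 kb apart and 2.02 ± 0.24 for the other 24, a difference below the spread between pups.

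The order of consecutive members had the same direction in both pups in 49 of 52 pairs. The exceptions were Mir329 with Mir494, Mir495 with Mir667, and Gm27379 with Mir544, in each of which one pup had equal counts or the values were within a few counts. Over the 40 members, Spearman's rho of the levels between the pups was 0.992, across genes of the same libraries that are not independent replicates. From one end of the cluster to the other, level showed little steady rise or fall (rho of -0.08 in both pups). This rho does not capture differences between sections. Level did not follow the GC content of the hairpin closely either (rho of -0.24 in pup 1 and -0.27 in pup 2). Both are given as descriptions over the same 40 genes.

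Members reached 10 CPM in both pups more often than the named genes as a whole did. This level was reached by 31 of 53 members, or 58.5%, while 12.5% of all 1973 genes reached it. At 100 CPM or more in both pups stood 14 members of 163 such genes in all, and at 1000 CPM 1 member, Mir411, of 73. By mean level Mir411 ranked at 53 among all genes, Mir127 at 74, Mir379 at 76 and Mir487b at 91. The median member had 18.7 CPM in pup 1 and 19.0 in pup 2, while the median of all genes was 0 in both. Of all genes 1277 had 0 counts, as had 7 members.

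**Figure D3:**
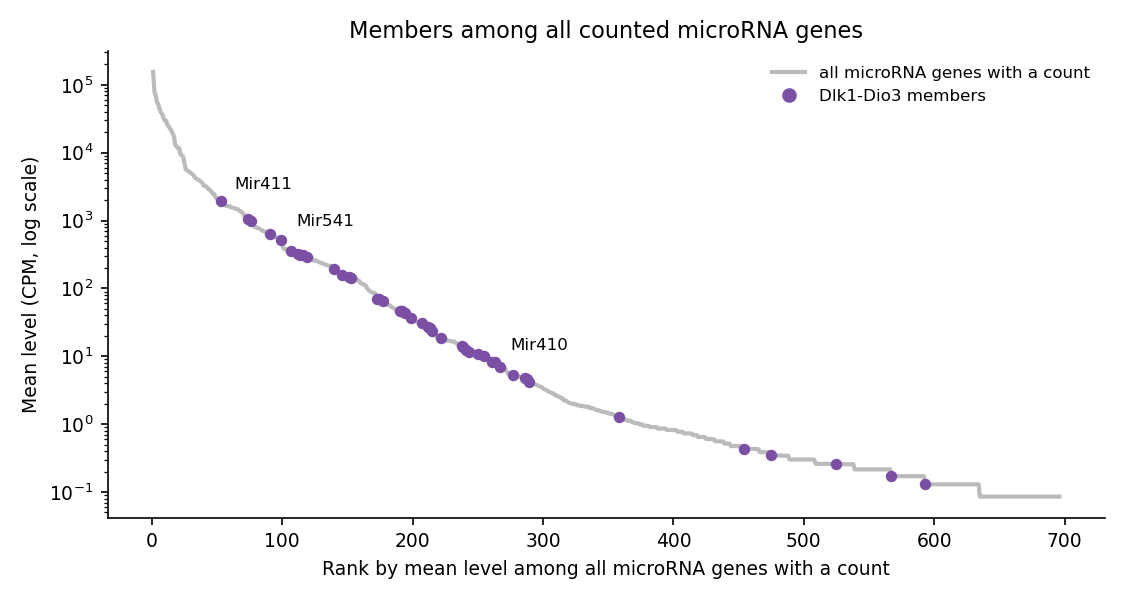
Mean level in CPM (log axis) against rank for all microRNA genes with a count (grey line), with the members as points. The highest member is Mir411 at rank 53, with Mir541 at rank 99 and Mir410 at rank 263, and 7 members with 0 counts are not drawn.

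Other imprinted microRNA genes were also counted. Mir335, which lies in the imprinted gene Mest, alone exceeded the whole cluster 7.75 times in pup 1 and 6.13 times in pup 2. Mir483, Mir675, Mir296 and Mir298 together had 4265 CPM in pup 1 and 3908 in pup 2, below the cluster's sum. All 5 of these genes reached 10 CPM in both pups. The imprinted run of hairpins in an intron of Sfmbt2 counts 107 genes, of which 7 (6.54%) reached 10 CPM in both pups, with 2626 and 2840 CPM in all. That run can be compared only with care, since 105 of its hairpins share 22 bases with another and reads that match several places are not counted, while 4 of the 53 Dlk1-Dio3 members do. The difference between the runs was not tested.

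Between the pups, the members called were all higher in pup 2. Both counts of a gene were compared by an exact binomial test (two-sided) with Benjamini-Hochberg adjustment over the 324 genes that averaged 10 counts or more. It compares 2 libraries and knows counting error alone. Of the members 40 passed that count filter, and 7 of them (17.5%) were called higher in pup 2, where 12.7% of all tested genes were. All 7 averaged 294 CPM or more, and these shares were not matched for level. As lower in pup 2 the test called 0 members of 40, against 21.0% of all tested genes. The exact test of edgeR took its spread from the same 2 libraries that it compared. The difference under test is part of that spread, so few calls by this test do not show that the pups are alike. After adjustment it called 0 members, with 0.00% of all tested genes called higher and 0.309% called lower in pup 2.

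The largest log2 ratio of pup 2 over pup 1 among the called members was that of Mir411, at 0.47, with a 95% interval for counting error of 0.43 to 0.52 and an adjusted p of 8.8e-104 in the exact binomial test. Mir369 followed at 0.46 (0.36 to 0.56) and Mir431 at 0.39 (0.29 to 0.49). Mir379 stood at 0.30, Mir127 at 0.26, Mir434 at 0.17 and Mir487b at 0.12, with Mir487b having the highest adjusted p of the 7, 0.0087.

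Other abundant members did not pass. Mir541 had a ratio of -0.02 (-0.11 to 0.06) on 5033 counts in both pups together and Mir382 one of -0.01 (-0.12 to 0.09), while Mir434 passed on 2808 counts. The counting intervals of Mir369 and Mir541, both inside Mirg, do not overlap. Over the 40 members the median ratio was 0.11, with 30 above 0, beside a median of -0.04 over all 324 genes, with 134 above 0.

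**Figure D4:**
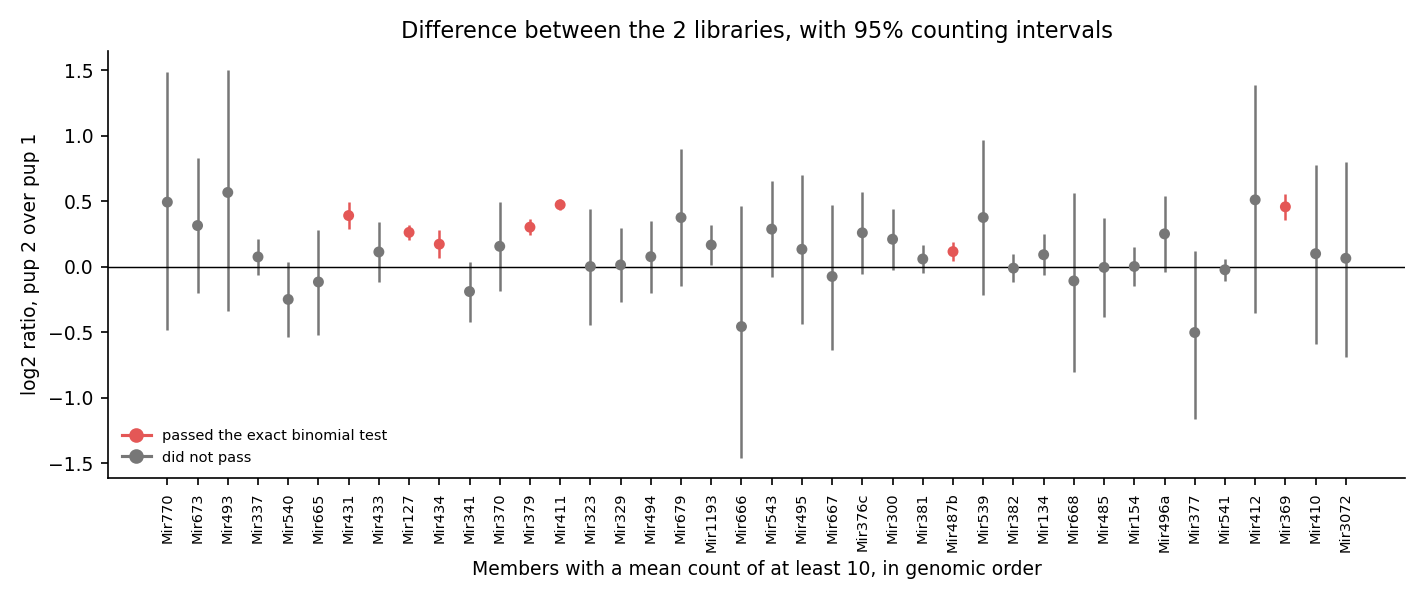
Log2 ratio of pup 2 over pup 1 for the 40 members with a mean count of at least 10, in genomic order, where lines are 95% intervals for counting error. The 7 members that passed the exact binomial test (red) lie above 0, and abundant members such as Mir541 (-0.02) and Mir382 (-0.01) lie close to 0.

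Markers of other cells were looked at because whole kidney can hold other cells. The neural list had counts above 0 in both pups for 3 of 7 genes with a row, with 25.7 CPM in pup 1 and 27.3 in pup 2 in all. The 3 Mir124a genes were at 0 counts. Striated muscle genes came to 5.14 and 4.42 CPM, with 1 of 5 above 0 in both pups. Mir133b, both Mir133a genes and Mir1a-1 were at 0. Copies of the Mir124a, Mir9, Mir1a and Mir133a genes elsewhere can take their reads out of these counts. Mir375 and Mir7-1 of endocrine cells came to 156 and 179 CPM, both above 0, and Mir122 of liver to 56.9 and 44.2 CPM. The summed level of the 3 erythroid genes differed between the pups, with 241 CPM in pup 1 and 98.8 in pup 2. The part of these cells in the difference between the pups was not tested.

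The levels above leave out the 6 uncounted genes. At 4 of these places the tables have a minus-strand gene that overlaps the missing one, with reads on the strand opposite to it. Opposite to Gm25252, at the place of Mir376a, these came to 388 CPM in pup 1 and 421 in pup 2. Opposite to Gm24321, at Mir409, they came to 387 ± 37.9 CPM, opposite to Mir299b, at Mir299a, to 323 ± 14.5, and opposite to Gm25750, at Mir380, to 139.8 ± 0.389. Values of this size would stand among the members at 100 CPM or more. Together they equal 16.5% of the cluster's counts in pup 1 and 14.96% in pup 2. All 4 places lie in the section Mir379 to Mir410. The shares given above by section and for the highest members leave these reads out. They also leave out the row of Mir3071, which overlaps Mir136 and had 65.8 and 72.8 CPM on its own strand.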

How the data were processed

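Per the deposited notes, the authors' tables hold counts of reads per gene on mm10 with annotation M4; they are raw counts, not normalised, with 1 table for each of 2 libraries. Aligner, trimming and filters: not given in the sources used here. Tables have 3 count columns without a header, whose sums mark them as either strand, strand of the gene and opposite strand; the second was used. Named genes held 58.2% of reads in pup 1 and 57.4% in pup 2. Lines without a gene were kept out of totals and tests.

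Identifiers were matched without version to GENCODE M21, of which 1894 of 1973 matched. CPM used the total over named genes, levels are mean ± SD over 2 pups, and shares have Wilson intervals for counting error within a library. The exact binomial test used TMM effective library sizes (edgeR 4.0.16), a mean count of at least 10, a prior count of 0.5 for ratios and an adjusted p threshold of 0.05. Tested on simulated data with counting error alone (324 genes tested, pup 2 against pup 1), it called 86.1% of genes changed 1.5-fold, 97.5% changed 3-fold and 1.81% unchanged. DESeq2 1.42.0 size factors were an alternative. SciPy 1.17.1 and R 4.3.3 were used. The 2 pups form 1 group, so p-values compare the reads of 2 libraries.

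The members, sections and lists were chosen with earlier results of these data known. Values in each pup are given for members with a mean of at least 100 CPM, members called between pups, members with 3 counts or fewer in both pups together, and the first and last member. Other members named in full were chosen after their values were seen.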

Additional observations from a re-analysis of the deposited data

Results flagged for a closer look

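Reads outside the counts used for members were above 3 counts in both pups at 6 rows of the window. Summed over the pups, the reads opposite to the annotated strand came to 3881 at Gm25252, 3693 at Gm24321, 3104 at Mir299b, 1353 at Gm25750 and 18 at Mir337, where the minus-strand gene Mir3544 lies and has no row. The row matched to Mir3071, annotated on the minus strand in release M21 and therefore no member, had 664 counts on its own strand and 0 on the opposite one. It overlaps Mir136, which has no row of its own, and its strand in release M4 was not looked at here.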

How the results depend on the processing

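The cluster's share of counts, 0.800%, was 0.462% of all reads, 0.610% without Mir411 in cluster and total, and 0.925% with the opposite-strand reads of 4 rows added, an alternative chosen after seeing the data. It ran from 0.726% to 0.875% with a pup left out. Members at the detection level, 31, numbered 14 at 100 CPM. With stretches cut at gaps of 10 kb, members before Mir431 and those opposite Rtl1 fall together, at 25.3% of the cluster's counts, and Mir3072 joins the section Mir379 to Mir410, at 73.4%. The median absolute log2 ratio of neighbours was 4.01 over all members, with a prior count of 0.5, 2.08 over those with a mean count of at least 10, and 3.60 without pairs that have an uncounted gene between them, an alternative also chosen after seeing the data. The 7 members called higher in pup 2 were the same under library totals, DESeq2 size factors, no filter and either strand, while the edgeR exact test called 0. All 14 members at 100 CPM or more moved by more than their SD when scaled to all reads, each to 0.578 times its level, and 3 of them with counts on either strand. No paired analysis was possible because both pups belong to 1 group. Depth limits members under about 10 counts, and multimapping reads those that share sequence.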
